A study of Mus musculus with 22 samples.

Results

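The genes described here carry out cholesterol synthesis in the cell, control it, or move cholesterol into, through and out of the cell. A list of 34 genes was taken: 8 of the mevalonate steps, 12 of the sterol steps, 4 that control the transcription factor SREBP2, 4 of uptake, transport and esterification, and 6 of the LXR receptors and efflux. Each gene was read from the probe sets that the platform annotation gives to its symbol alone, and where it had several, the brightest over the 22 arrays stood for it. This gave 31 of the 34 genes, among 18193 genes measured in all. The expression of Acat2, Soat2 and Nr1h2 was not analysed here.

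The samples were RNA of the terminal ileum, the last stretch of the small intestine, from mice of the inbred NOD strain, which is prone to autoimmune diabetes. Mice of the PAT groups had pulses of antibiotics at therapeutic doses, mice of the STAT groups had antibiotics below a therapeutic level, and the others are labelled as controls. Each array held 1 sample, giving 5 PAT males, 3 STAT males, 5 control males, 3 PAT females, 3 STAT females and 3 control females. The labels give NOD as the disease state of all 6 groups, controls included. For drugs, doses, ages and diabetes status, the sources used here give nothing. Nothing in the labels says that the arrays came from separate animals, so every p-value here speaks of the spread among these 22 samples, part of which could be technical.

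Cells make cholesterol from acetyl-CoA through mevalonate, isoprenoid diphosphates, squalene and lanosterol. When sterols in the endoplasmic reticulum run low, SCAP carries SREBP2 to the Golgi, where it is cut, and the released factor switches on the synthesis genes and INSIG1, whose product holds SCAP back when sterols return. Oxysterols from excess cholesterol activate the LXR receptors, which raise the efflux transporters; in the small intestine, NPC1L1 takes sterols up from the lumen and the pair ABCG5 and ABCG8 sends them back.

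Promoters of 5 genes are shown because SREBP2 works at short elements near the start site together with factors that bind a CCAAT box. Insig1, Hmgcs1, Msmo1 and Cyp51 were higher in PAT males, and Tm7sf2 was the synthesis gene lower in PAT females. Each window runs from 250 bases before to 50 bases after the start of transcription, on the gene's own strand, in the RefSeq promoter table of build GRCm38.p6. The windows lie at chr5:28071162-28071461 on the plus strand (Insig1), chr13:119690101-119690400 plus (Hmgcs1), chr8:64733529-64733828 minus (Msmo1), chr5:4104648-4104947 minus (Cyp51) and chr19:6067801-6068100 minus (Tm7sf2). Capitals mark the sterol regulatory element core CACNCCAC or its reverse complement GTGGNGTG, and CCAAT or its reverse complement ATTGG.
Insig1: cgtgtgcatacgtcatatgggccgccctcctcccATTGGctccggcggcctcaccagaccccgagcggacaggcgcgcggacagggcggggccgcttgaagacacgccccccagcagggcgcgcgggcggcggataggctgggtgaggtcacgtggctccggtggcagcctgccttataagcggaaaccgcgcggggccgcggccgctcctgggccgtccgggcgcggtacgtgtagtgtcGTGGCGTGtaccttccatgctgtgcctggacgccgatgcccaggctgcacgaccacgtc
Hmgcs1: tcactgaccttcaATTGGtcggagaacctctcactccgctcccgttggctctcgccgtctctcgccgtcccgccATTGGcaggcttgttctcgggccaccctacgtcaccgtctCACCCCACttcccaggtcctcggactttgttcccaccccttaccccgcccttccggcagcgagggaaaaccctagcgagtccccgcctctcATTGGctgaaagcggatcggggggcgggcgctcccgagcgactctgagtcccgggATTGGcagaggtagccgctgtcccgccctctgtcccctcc
Msmo1: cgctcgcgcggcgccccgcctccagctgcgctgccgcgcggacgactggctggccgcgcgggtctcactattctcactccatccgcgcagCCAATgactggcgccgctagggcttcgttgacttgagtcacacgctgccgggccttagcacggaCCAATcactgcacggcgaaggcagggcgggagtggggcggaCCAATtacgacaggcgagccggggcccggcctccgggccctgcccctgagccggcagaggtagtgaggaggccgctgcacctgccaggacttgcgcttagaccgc
Cyp51: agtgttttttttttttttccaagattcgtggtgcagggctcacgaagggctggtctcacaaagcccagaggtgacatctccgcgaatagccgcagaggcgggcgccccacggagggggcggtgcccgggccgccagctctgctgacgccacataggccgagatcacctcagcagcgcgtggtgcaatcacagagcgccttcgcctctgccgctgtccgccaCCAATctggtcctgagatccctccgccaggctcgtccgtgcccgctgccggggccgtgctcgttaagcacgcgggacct
Tm7sf2: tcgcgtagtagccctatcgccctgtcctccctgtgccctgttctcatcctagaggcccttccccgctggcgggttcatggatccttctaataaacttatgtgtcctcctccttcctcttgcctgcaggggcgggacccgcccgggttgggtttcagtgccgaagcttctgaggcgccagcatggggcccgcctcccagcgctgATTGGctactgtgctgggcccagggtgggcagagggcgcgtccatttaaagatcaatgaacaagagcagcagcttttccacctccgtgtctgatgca
The Insig1 core begins at position -9 and the Hmgcs1 core at position -136, counted from the start site. Msmo1 has CCAAT at -160, -96 and -55, Cyp51 at -29, and Tm7sf2 has ATTGG at -47. The table held windows for 28 of the 34 genes. On either strand the core was found in 3 of these 28 (10.7%), against 7.12% of 27025 genes in the table, and CCAAT in 23 of 28 (82.1%), against 41.1%. Among the 7 genes with a window that were higher in PAT males, the core was in 2 (Insig1 and Hmgcs1) and CCAAT in all 7. Among the other 21 genes of the list with a window, the core was in 1 (4.76%), Acat2, and CCAAT in 16 (76.2%), Tm7sf2 and Abcg8 included. These 21 hold Acat2 and Nr1h2, whose expression was not analysed, so they are not all genes tested in PAT males. Another motif, CACGTG, which reads the same on both strands and shares no position with the other matches in the printed windows, was in 6 of 28 (21.4%), against 8.09%; Insig1 has it at -101. A match is a description of the letters and not a site that was tested.

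Arrays that stand apart bear on several results. PAT female 1 had a log2 level of 10.37 for Lct (lactase, a brush border enzyme) and 9.16 for Ms4a1 (a B cell surface protein), against 4.18 to 4.81 and 4.31 to 5.56 on the other 21 arrays. STAT males 2 and 3 had differences between the 3′ and 5′ probe sets of beta-actin, a measure of RNA integrity, of 0.59 and 0.60, against 0.28 to 0.42 elsewhere, and the lowest levels of Apoa1 and Vil1, both made by absorptive cells. Column medians lay between 5.68 and 5.79, no pair of arrays held identical values, and the first principal component (20.1% of the variance) was highest on these 3 arrays. The tissue label was checked on 4 ileal genes of bile acid handling (Fabp6, Slc10a2, Slc51a and Slc51b), whose summed level lay between 14.73 and 15.40 on all arrays. Fabp6, the brightest of them at 13.93 to 14.62, weighs most in that sum. Slc10a2 by itself was lowest on the arrays that stand apart. It was at 9.61 in PAT female 1 and at 9.98 and 10.14 in STAT males 2 and 3, against 10.94 to 11.98 elsewhere. Because the RNA is from whole tissue, fewer cells of a type and less RNA per cell cannot be told apart.

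In PAT males, SREBP2's own gene, its regulator Insig1 and a run of synthesis enzymes were higher than in control males, and the sterol exporter Abcg8 was lower. The limma test, with p-values adjusted by Benjamini-Hochberg over all 18193 genes and a call at an adjusted p under 0.05, called 9 of 31 genes, 8 higher (25.8%) and 1 lower (3.23%). Of all genes tested, 9.02% were called in this comparison, 2.34% higher and 6.68% lower. Among the 19 synthesis enzymes 6 were higher, 0 lower and 13 not called, with a median log2 fold change of 0.27, where the median over all genes was -0.01. As a mean over the 19 on each array, set against the control males, the groups overlapped. PAT males ran from 0.02 to 0.46 and control males from -0.145 to 0.265. In 6 of the 31 genes (19.4%) every PAT male lay above every control male, against 1.75% of all genes.

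**Figure D1:**
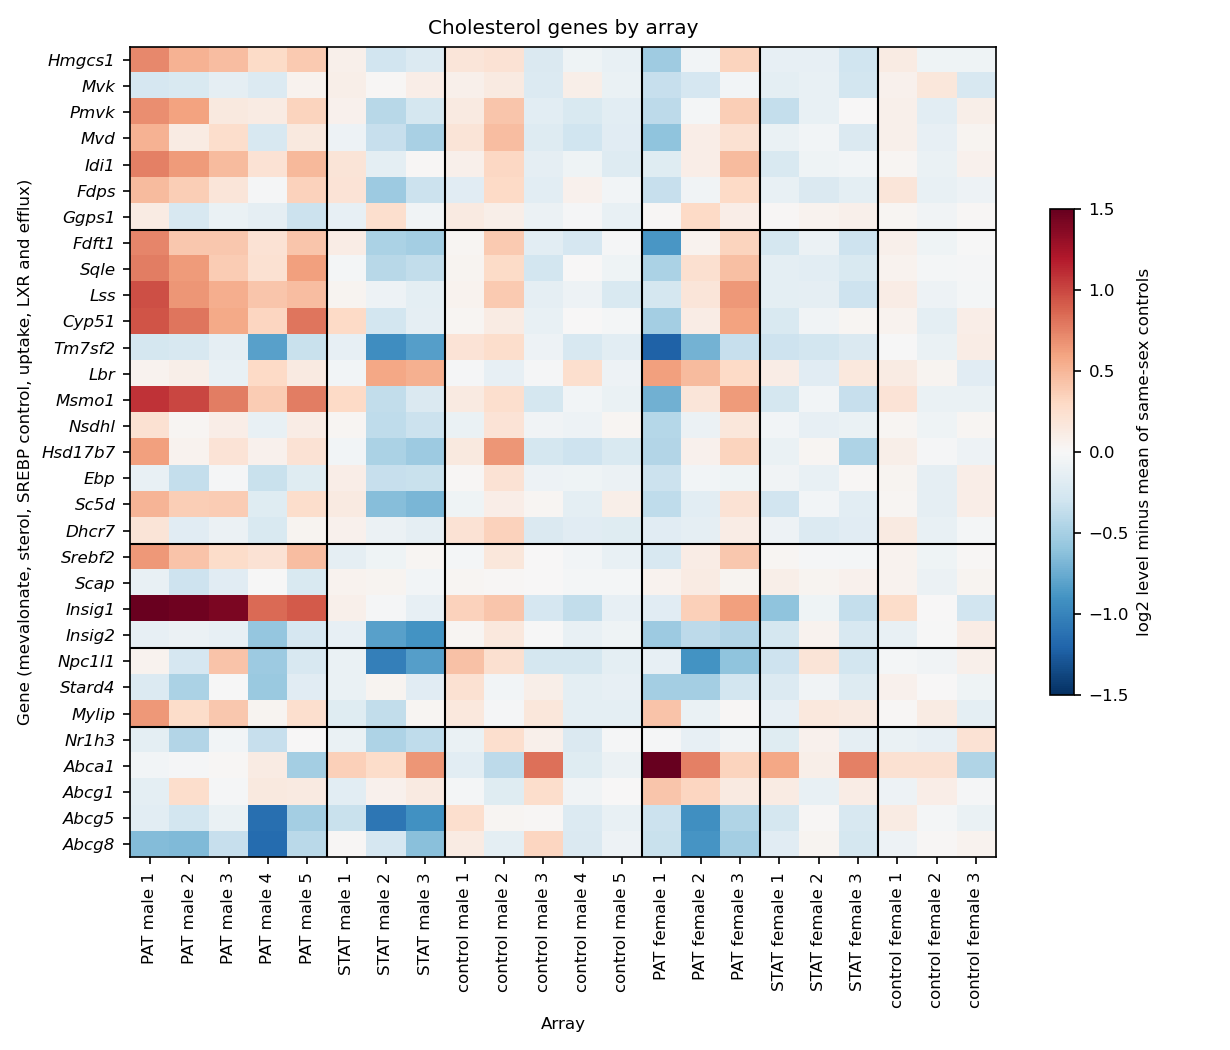
Each cell is the log2 level of a gene (rows, ordered by role, with lines between the mevalonate, sterol, SREBP control, uptake, and LXR and efflux groups) on an array (columns, with lines between the 6 groups) minus the mean of the control arrays of the same sex. The Insig1 row is the darkest red in the 5 PAT males, most sterol enzymes are red there, and PAT female 1 is blue for most synthesis enzymes while PAT female 3 is red.

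Insig1 had the largest difference of the 31 genes in males. Its log2 levels in PAT males 1 to 5 were 10.82, 10.80, 10.75, 10.19 and 10.26, against 9.68, 9.75, 9.08, 8.96 and 9.21 in control males 1 to 5. The groups did not overlap, and PAT males 4 and 5 were the lowest of the treated arrays. The log2 fold change was 1.23 ± 0.18 (SE; 2.34-fold, limma adjusted p = 0.00032), and it stayed called in every run that left out 1 array and under all 10 other settings tried.
Srebf2, which encodes SREBP2, was at 9.83, 9.61, 9.46, 9.39 and 9.65 in PAT males, against 9.16, 9.34, 9.18, 9.14 and 9.07 in control males. All 5 PAT males were above the highest control, which was control male 2, and the log2 fold change was 0.41 ± 0.10 (1.33-fold, limma adjusted p = 0.013). A dimmer Srebf2 probe set gave 0.09 ± 0.07 and was not called. Scap, the escort of SREBP2, stood at 9.52, 9.32, 9.46, 9.63 and 9.41 in PAT males, against 9.66, 9.65, 9.64, 9.61 and 9.60 in control males. Only PAT male 4 reached the control range, yet the value of -0.17 ± 0.06 did not pass the test (limma adjusted p = 0.088). Insig2, a second INSIG protein that is not a typical SREBP2 target, gave -0.23 ± 0.12 (limma adjusted p = 0.24).

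Of the 7 mevalonate genes measured, 2 were called in PAT males. Hmgcs1, the cytosolic synthase that joins acetyl-CoA to acetoacetyl-CoA, was at 13.61, 13.42, 13.36, 13.18 and 13.29 in PAT males, against 13.07, 13.11, 12.68, 12.83 and 12.78 in control males. Again the groups did not overlap, and the log2 fold change was 0.48 ± 0.13 (1.39-fold, limma adjusted p = 0.024). Leaving out PAT male 2 or control male 3 ended the Hmgcs1 call (adjusted p up to 0.069). Idi1, which interconverts the isoprenoid building blocks, was at 12.19, 12.08, 11.92, 11.66 and 11.93 in PAT males, against 11.52, 11.76, 11.31, 11.38 and 11.25 in control males. PAT male 4 lay inside the control range for Idi1, just below control male 2. Its log2 fold change was 0.51 ± 0.12 (1.43-fold, limma adjusted p = 0.011). The kinase Pmvk (0.38 ± 0.15), the prenyl transferase Fdps (0.27 ± 0.14) and the decarboxylase Mvd (0.16 ± 0.16) had values above 0 that did not pass. The kinase Mvk (-0.15 ± 0.09) and Ggps1 (-0.13 ± 0.09), whose product feeds protein prenylation rather than sterols, had values below 0 that did not pass. A dimmer Ggps1 probe set, tested on its own, was called lower (-0.30 ± 0.09, limma adjusted p = 0.047).

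Of the 12 sterol genes, 4 rose in PAT males, and these are consecutive or near-consecutive steps from squalene onward. Sqle, the epoxidase of squalene, was at 11.60, 11.46, 11.21, 11.06 and 11.44 in PAT males, against 10.87, 11.12, 10.56, 10.84 and 10.76 in control males. PAT male 4 fell below control male 2, and the other PAT males were above every control. The log2 fold change of Sqle was 0.52 ± 0.14 (1.44-fold, limma adjusted p = 0.023), and the call ended without PAT male 2, PAT male 5 or control male 3 (adjusted p up to 0.070).
Lss, which closes the sterol rings, was at 9.86, 9.56, 9.44, 9.31 and 9.36 in PAT males, against 8.94, 9.28, 8.77, 8.82 and 8.66 in control males. Every PAT male was above control male 2, the highest control by a wide gap. The log2 fold change was 0.61 ± 0.14 (1.53-fold, limma adjusted p = 0.0095). A dimmer Lss probe set gave -0.15 ± 0.17, and the mean of the gene's probe sets gave 0.22, which was not called (limma adjusted p = 0.14).
Cyp51, the lanosterol demethylase, was at 11.61, 11.48, 11.24, 11.00 and 11.48 in PAT males, against 10.70, 10.79, 10.56, 10.68 and 10.65 in control males. The controls were tight and all below PAT male 4, the lowest treated array, and the log2 fold change was 0.69 ± 0.15 (1.61-fold, limma adjusted p = 0.0092). All 3 probe sets of Cyp51 were called higher when each was tested on its own, as were 4 of 5 of Hmgcs1.
Msmo1, the sterol methyl oxidase, was at 12.35, 12.27, 12.03, 11.65 and 12.03 in PAT males, against 11.40, 11.52, 11.00, 11.23 and 11.17 in control males. The groups did not overlap, with PAT male 4 once more the lowest of its group, and the log2 fold change was 0.80 ± 0.19 (1.74-fold, limma adjusted p = 0.012). Cyp51 and Msmo1 stayed called in all 10 runs that left out 1 array and under all 10 other settings.

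The remaining sterol enzymes were not called in PAT males. Fdft1, squalene synthase, had a log2 fold change of 0.44 ± 0.17 (limma adjusted p = 0.12), with PAT males at 11.84 to 12.35 and control males at 11.37 to 12.01. Sc5d, a sterol desaturase, gave 0.27 ± 0.15 and Hsd17b7, a sterol ketoreductase, 0.23 ± 0.17. The probe sets of Sc5d disagree in direction: a second Sc5d probe set was called lower (-0.47 ± 0.13, limma adjusted p = 0.026). Those of Hsd17b7 all had values above 0, and a pair of dimmer Hsd17b7 probe sets was called higher (0.48 ± 0.13 and 0.44 ± 0.11). The sterol enzymes Nsdhl (0.07 ± 0.10), Ebp (-0.20 ± 0.10) and Dhcr7 (-0.05 ± 0.11) were close to 0 or below it. Tm7sf2 and Lbr, both reductases of the same sterol double bond, gave -0.36 ± 0.16 (limma adjusted p = 0.17) and 0.09 ± 0.11.

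**Figure D2:**
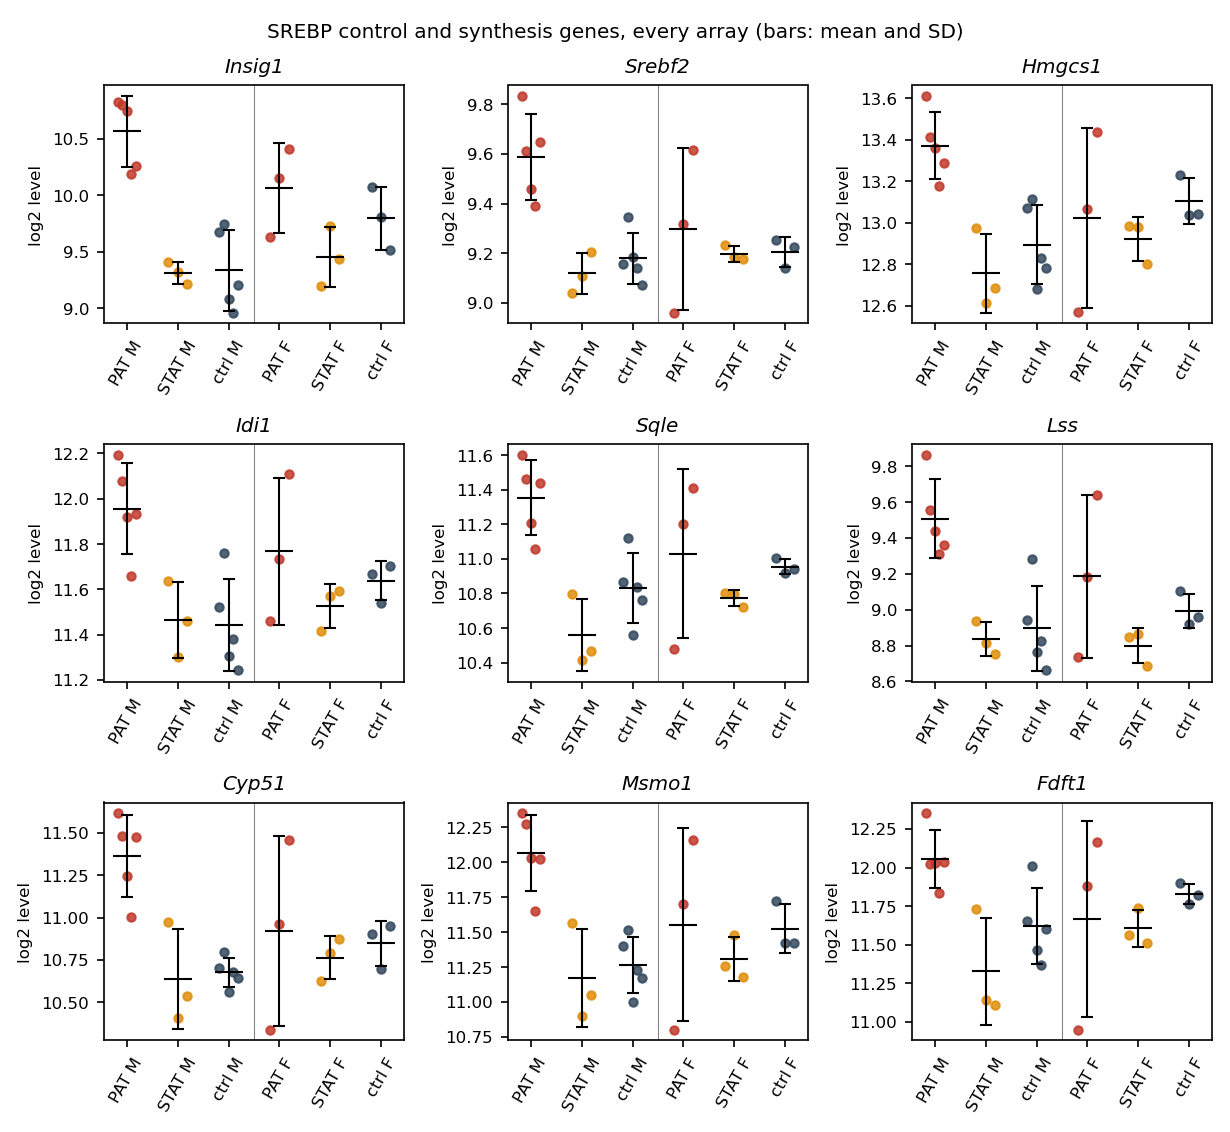
Log2 levels of 9 genes of SREBP control and synthesis on every array, with PAT left of STAT and control within males (M) and then females (F); horizontal bars and whiskers are the mean and SD of a group. PAT males lie above control males without overlap for Insig1, Srebf2, Hmgcs1, Lss, Cyp51 and Msmo1, and PAT females spread from below to above the control females for all panels but Insig1.

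Of the 5 LXR and efflux genes measured, 1 was called in PAT males: Abcg8 fell. It stood at 7.70, 7.69, 8.01, 7.20 and 7.95 in PAT males, against 8.47, 8.21, 8.67, 8.13 and 8.28 in control males. Every PAT male was below every control male, and the log2 fold change was -0.64 ± 0.15 (1.56-fold lower, limma adjusted p = 0.010), called in every run that left out 1 array. Its partner Abcg5 was at 10.37, 10.26, 10.43, 9.39 and 10.02 in PAT males, against 10.78, 10.56, 10.55, 10.32 and 10.42 in control males. PAT males 1 and 3 overlapped the controls, PAT male 4 was far below them, and the value of -0.43 ± 0.17 did not pass (limma adjusted p = 0.12).
Abca1, which loads cholesterol onto apolipoprotein A-I, was at 8.27, 8.29, 8.33, 8.43 and 7.80 in PAT males, against 8.15, 7.91, 9.13, 8.13 and 8.22 in control males. The groups overlapped throughout, with a log2 fold change of -0.08 ± 0.23. Control male 3, the highest Abca1 array of the males, also had the highest level of the fat cell gene Adipoq, 12.08, where all arrays ran from 4.14 to 12.08; its part in the Abca1 value was not tested.
Abcg1, an exporter to high-density lipoprotein, was at 6.59, 7.01, 6.73, 6.89 and 6.88 in PAT males, against 6.71, 6.56, 7.01, 6.69 and 6.74 in control males. Nr1h3, which encodes the receptor LXR-alpha, was at 7.74, 7.45, 7.85, 7.54 and 7.89 in PAT males, against 7.79, 8.14, 7.96, 7.67 and 7.87 in control males. Both overlapped between the groups, with log2 fold changes of 0.08 ± 0.09 for Abcg1 and -0.19 ± 0.10 for Nr1h3 (limma adjusted p = 0.64 and 0.26).

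None of the 3 uptake and transport genes was called in PAT males. Npc1l1, the sterol uptake protein of the brush border, was at 11.26, 10.96, 11.63, 10.66 and 10.97 in PAT males, against 11.65, 11.45, 10.94, 10.94 and 11.06 in control males, with a log2 fold change of -0.11 ± 0.20. Its groups overlapped over most of their range. Stard4, a carrier of sterols between membranes, gave -0.28 ± 0.10 (limma adjusted p = 0.072). Mylip, a ubiquitin ligase for lipoprotein receptors and itself an LXR target, gave 0.33 ± 0.12 (limma adjusted p = 0.087).

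In PAT females the synthesis genes gave no common direction. The limma test called 1 of 31 genes, Tm7sf2, lower (3.23%), where 3.35% of all genes were called and 1.08% were lower. The median log2 fold change of the 19 synthesis enzymes was -0.03, with 7 above 0 and 12 below, and the median over all genes was -0.01. The mean of the 19 enzymes, each set against the control females, was -0.40 in PAT female 1, 0.02 in PAT female 2 and 0.27 in PAT female 3, against -0.07 to 0.08 in control females. PAT female 1 is the array with high Lct and Ms4a1. Without PAT female 1 the median of the enzymes was 0.17, with 15 above 0, and 0 of 31 genes were called by limma. Over the 6 runs that left out 1 array of this comparison, 123 to 751 of all genes were called.

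Tm7sf2 was at 9.25, 9.75 and 10.11 in PAT females 1 to 3, against 10.46, 10.36 and 10.57 in control females 1 to 3. All PAT females were below all controls, and PAT female 1 was the lowest. The log2 fold change was -0.76 ± 0.21 (1.69-fold lower, limma adjusted p = 0.048). The call ended in 5 of 6 runs that left out 1 array, with adjusted p up to 0.22 (without PAT female 1, at a value of -0.53), and under 5 of 10 other settings.
Insig1 in females was at 9.63, 10.15 and 10.41 in PAT, against 10.07, 9.81 and 9.51 in controls. The groups overlapped, with PAT female 1 among the controls, and the log2 fold change was 0.27 ± 0.23 (limma adjusted p = 0.55). Srebf2 was at 8.96, 9.32 and 9.61 in PAT females, against 9.25, 9.14 and 9.22 in control females, and Msmo1 was at 10.80, 11.70 and 12.16 against 11.72, 11.42 and 11.42. For both genes PAT female 1 was below every control and PAT female 3 above every control. Scap, at 9.65, 9.71 and 9.64 in PAT females, against 9.64, 9.50 and 9.63 in control females, differed by 0.07 ± 0.08.

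In 6 of the 31 genes (19.4%) every PAT female was below every control female, where 13.2% of all genes were; these were Tm7sf2, Insig2, Npc1l1, Stard4, Abcg5 and Abcg8. Abcg8 was at 8.19, 7.64 and 8.02 in PAT females, against 8.46, 8.55 and 8.58 in control females, a log2 fold change of -0.58 ± 0.19 (limma adjusted p = 0.085). Abcg5 was at 10.27, 9.67 and 10.13 in PAT females, against 10.71, 10.56 and 10.49 in control females, a log2 fold change of -0.57 ± 0.22 (limma adjusted p = 0.14). For both transporters PAT female 2, and not the array with high Lct, was the lowest. Npc1l1 was at 11.34, 10.56 and 10.86 in PAT females, against 11.44, 11.41 and 11.53 in control females, and its value of -0.54 ± 0.25 did not pass (limma adjusted p = 0.23).
In 3 of the 31 genes (9.68%), Lbr, Abca1 and Abcg1, every PAT female was above every control female, where 14.7% of all genes were. Lbr, which reduces the same sterol double bond as Tm7sf2, was at 11.32, 11.18 and 11.00 in PAT females, against 10.83, 10.75 and 10.54 in control females, and its value of 0.46 ± 0.15 did not pass (limma adjusted p = 0.077).
Abca1 was at 9.20, 8.41 and 7.99 in PAT females, against 7.88, 7.88 and 7.20 in control females, and Abcg1 at 7.01, 6.91 and 6.73 against 6.52, 6.69 and 6.57. Both had all PAT females above all controls, highest in PAT female 1, and neither passed, with log2 fold changes of 0.88 ± 0.29 and 0.29 ± 0.12 (limma adjusted p = 0.087 and 0.18). Without PAT female 1 the Abca1 value was 0.55 ± 0.29. Nr1h3, at 7.86, 7.74 and 7.82 in PAT females, against 7.77, 7.75 and 8.09 in control females, differed by -0.06 ± 0.13.

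**Figure D3:**
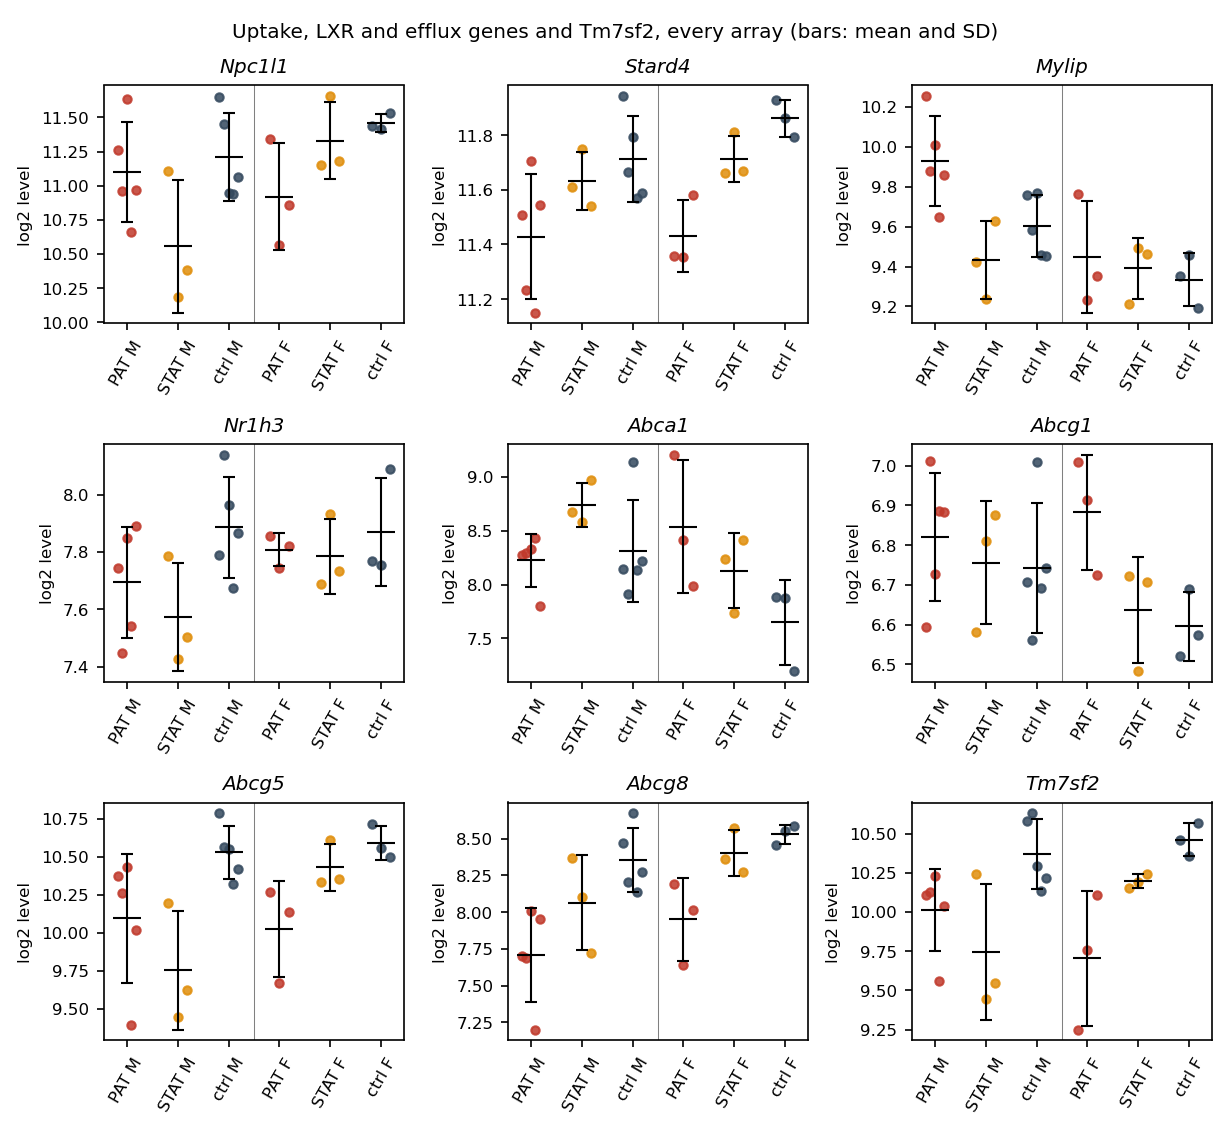
Log2 levels of 8 uptake, LXR and efflux genes and of Tm7sf2 on every array, with PAT left of STAT and control within males (M) and then females (F); bars and whiskers are the mean and SD of a group. Abcg8 is lower in PAT than in control without overlap in both sexes, and Abca1 is above control without overlap in PAT females but not in PAT males.

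The test of the difference between the female and the male effect of PAT called 0 of 31 genes and 0.00550% of all genes. At an unadjusted limma p under 0.05 there were 7 of the 31, where 18.6% of all genes were. The value for Insig1 was -0.96 ± 0.29 (limma adjusted p = 0.13), for Msmo1 -0.77 ± 0.31 (adjusted p = 0.20) and for Abca1 0.97 ± 0.37 (adjusted p = 0.18), coded as the female effect minus the male effect. The calls in PAT males and their absence in PAT females are therefore not shown to differ between the sexes.

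Averaged over the sexes, PAT gave 9 called genes, 4 higher and 5 lower, where 11.0% of all genes were called, 4.61% higher and 6.38% lower. The higher genes were Insig1 (0.75 ± 0.14, limma adjusted p = 0.0023), Lss (0.40 ± 0.11), Idi1 (0.32 ± 0.10) and Srebf2 (0.25 ± 0.08). The lower genes were Abcg8 (-0.61 ± 0.12, limma adjusted p = 0.0026), Tm7sf2 (-0.56 ± 0.13), Abcg5 (-0.50 ± 0.14), Stard4 (-0.36 ± 0.08, limma adjusted p = 0.0063) and Insig2 (-0.35 ± 0.10). Stard4 and Insig2 are described here by array, since both passed only in this comparison. Stard4 was at 11.51, 11.23, 11.71, 11.15 and 11.54 in PAT males, against 11.94, 11.67, 11.79, 11.57 and 11.59 in control males, and at 11.36, 11.35 and 11.58 in PAT females, against 11.93, 11.86 and 11.79 in control females. Only PAT male 3 reached above the lowest control of its sex. Averaged over the sexes, a dimmer Stard4 probe set was called lower (-0.31 ± 0.08, limma adjusted p = 0.015). The dimmest gave -0.15 ± 0.08 and was not called (limma adjusted p = 0.32). Insig2 was at 10.57, 10.60, 10.57, 10.11 and 10.43 in PAT males, against 10.72, 10.84, 10.68, 10.57 and 10.63 in control males, and at 10.04, 10.20 and 10.15 in PAT females, against 10.48, 10.59 and 10.70 in control females. It was separated in females and overlapped narrowly in males.
Insig1, Abcg8, Stard4 and Tm7sf2 stayed called in all 16 runs that left out 1 array. Srebf2 was lost in 12 of these runs, Idi1 in 10, Lss and Insig2 in 3 each and Abcg5 in 2. Without PAT female 1 the count was 12, with Cyp51 (0.52 ± 0.11), Msmo1 (0.60 ± 0.13), Sqle (0.44 ± 0.09) and Hmgcs1 (0.31 ± 0.09) called higher and Insig2 no longer called. Over the 16 runs, 1353 to 2494 of all genes were called. With the Gapdh difference between 3′ and 5′ probe sets as a covariate, Tm7sf2 (limma adjusted p = 0.19), Abcg5 (0.33), Insig2 (0.44) and Srebf2 were no longer called.

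**Figure D4:**
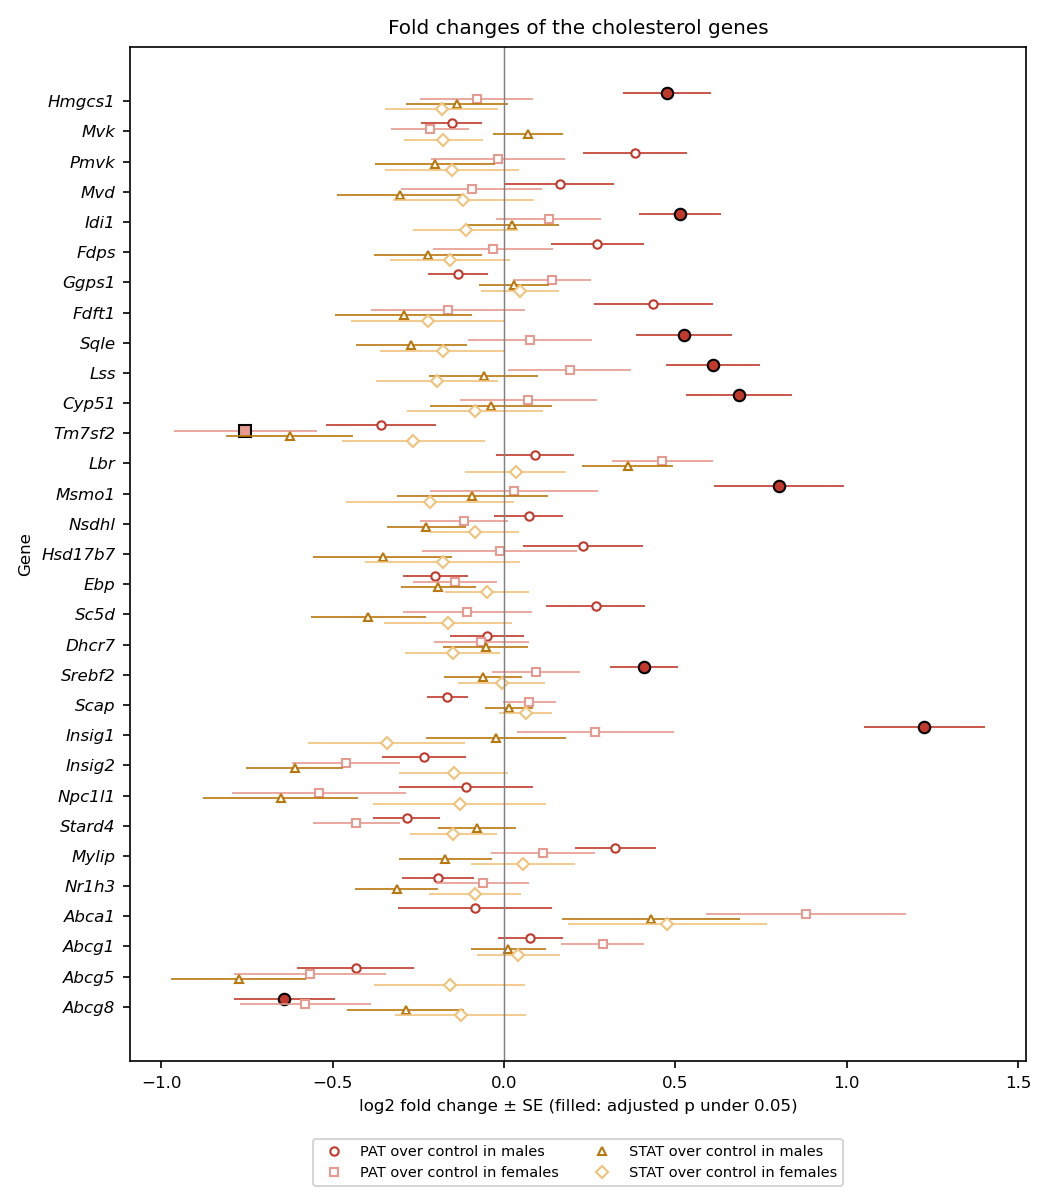
Log2 fold changes over same-sex controls (points) with their SE (lines) for the 31 genes, PAT in males (red circles), PAT in females (pink squares), STAT in males (brown triangles) and STAT in females (pale diamonds); a filled point is a gene called at an adjusted p under 0.05. Filled points are the 8 higher genes and Abcg8 in PAT males and Tm7sf2 in PAT females, and no STAT point is filled.

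In STAT mice no cholesterol gene was called against controls. The limma test called 0 of 31 genes in STAT males, in STAT females and averaged over the sexes, where 0% of all genes were called in each, and at an unadjusted p under 0.05 it had 7, 0 and 7 of the 31 and 2852, 602 and 2391 of all genes. Insig1, the gene with the largest PAT difference, was at 9.41, 9.32 and 9.21 in STAT males, against 8.96 to 9.75 in control males (-0.02 ± 0.20), and at 9.20, 9.73 and 9.44 in STAT females, against 10.07, 9.81 and 9.51 in control females (-0.34 ± 0.23). It lay inside the control range in males and overlapped it in females.
The 19 synthesis enzymes had a median of -0.19 in STAT males and -0.16 in STAT females, with 15 and 17 of them below 0, where the median of all genes was -0.01 and 0.01. In males this rested on STAT males 2 and 3, whose enzyme means were -0.28 and -0.26, against 0.07 in STAT male 1; with both left out, and only STAT male 1 remaining, the median was 0.07. In females 6 of 31 genes (Hmgcs1, Fdps, Fdft1, Sqle, Lss and Tm7sf2; 19.4%) had every STAT array below every control, where 5.10% of all genes did, and each of these had a limma adjusted p of 1.
Abcg5 and Insig2 had the smallest adjusted p of the 31 genes in STAT males without passing, while Abcg8 gave -0.29 ± 0.17 (limma adjusted p = 0.44). Abcg5 was at 10.19, 9.44 and 9.62 in STAT males, all below the lowest control male at 10.32, with a log2 fold change of -0.77 ± 0.20 (limma adjusted p = 0.11). Insig2 was at 10.57, 9.87 and 9.79, with -0.61 ± 0.14 (adjusted p = 0.11). With STAT males 2 and 3 left out, these values were -0.33 and -0.12. With array quality weights in the limma fit, 12 of 31 genes were called in STAT males, 1 higher and 11 lower, where 4069 of 18193 genes were; without STAT male 1 there were 7, where 1973 of all genes were called.

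PAT and STAT were also set directly against each other; this comparison and the ones above share arrays, so their values are given side by side only. In males 12 of 31 genes (38.7%) were higher in PAT and 0 lower, where 8.71% of all genes were called and 3.47% were higher. They were the 8 genes above (Insig1 at 1.25 ± 0.20, Msmo1 at 0.89 ± 0.22, Sqle at 0.80 ± 0.16) with Fdft1 (0.73 ± 0.20), Sc5d (0.66 ± 0.17), Pmvk (0.58 ± 0.18) and Mylip (0.50 ± 0.14). The count was 1 without STAT male 2, 2 without STAT male 3 and 18 without STAT male 1, where 254, 300 and 2847 of all genes were called. With STAT males 2 and 3 both left out it was 0, where 62 of all genes were called; STAT males then held 1 array, assumed to vary like the other groups. Cell type markers moved in the same comparison. Of 8 absorptive cell markers 5 were higher in PAT and of 4 ileal markers 2, with sums of 16.07 to 16.42 and 14.89 to 15.38 in PAT males, against 15.37 to 16.14 and 14.73 to 14.995 in STAT males. Lower in PAT were 2 of 5 dividing cell markers and 1 of 5 each of the crypt base, smooth muscle and fibroblast markers; their sums were 12.17 to 12.91, 12.60 to 13.04, 13.57 to 14.49 and 13.42 to 14.09 in PAT males, against 12.66 to 13.11, 12.62 to 13.60, 14.29 to 14.84 and 13.90 to 14.35 in STAT males. Their part in the count was not tested. In females 0 of 31 genes were called, where 0.863% of all genes were, with 6 of the 31 and 15.2% of all genes at an unadjusted limma p under 0.05 and Insig1 at 0.61 ± 0.23 (adjusted p = 0.20). Averaged over the sexes 5 genes were higher, Insig1, Msmo1, Lss, Sqle and Idi1, where 5.88% of all genes were called and 2.89% higher, and 1 with STAT males 2 and 3 left out.

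The limma test of the female minus the male effect of STAT called 0 of 31 genes and 0% of all genes, with 1 of the 31 and 3.44% of all genes at an unadjusted p under 0.05.

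A second list held 35 other genes of SREBP processing, sterol transport and oxysterols, of which 30 were measured. In PAT males 4 were called (13.3%, where 9.02% of all genes were). Gramd1b, which carries cholesterol from the plasma membrane inward, was higher (0.77 ± 0.22, limma adjusted p = 0.031). Rnf145 (-0.43 ± 0.11) and Rnf139 (-0.29 ± 0.07), ubiquitin ligases of the endoplasmic reticulum, and Mbtps1 (-0.23 ± 0.07), the first protease that cuts SREBP in the Golgi, were lower. In PAT females 1 was called (3.33%, where 3.35% of all genes were), the other SREBP protease Mbtps2 (0.35 ± 0.09, limma adjusted p = 0.035). Averaged over the sexes 7 were called (23.3%, where 11.0% of all genes were). Gramd1b (0.72 ± 0.18), Ch25h (0.31 ± 0.10), an oxysterol-making hydroxylase, Mbtps2 (0.24 ± 0.06) and the sterol-binding Tmem97 (0.21 ± 0.07) were higher. The oxysterol enzyme Cyp27a1 (-0.58 ± 0.16), Erlin2 (-0.28 ± 0.07) and Rnf139 (-0.24 ± 0.05) were lower. No gene of this list was called in STAT against controls.

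Markers of other cell types and RNA integrity were set beside the PAT against control values. Of 8 absorptive cell markers 2 rose in PAT males, Fabp1 (1.46 ± 0.35) and Apoa4 (1.43 ± 0.42), with a summed level of 16.07 to 16.42 in PAT males and 15.97 to 16.28 in control males. Of 5 crypt base markers 1 fell, Ascl2 (-0.85 ± 0.16), with sums of 12.60 to 13.04 in PAT males and 12.88 to 13.17 in control males, and of 3 Paneth cell markers 1 fell, Mmp7 (-0.54 ± 0.17), with sums of 14.89 to 15.22 and 15.03 to 15.41. In PAT females Fabp1 (1.79 ± 0.45) and Apoa4 (2.03 ± 0.54) rose as well, with absorptive sums of 16.19 to 16.46 in PAT females and 16.19 to 16.27 in control females. There Kdr rose among 4 endothelial markers and Serpina1c among 4 hepatocyte markers, with sums of 9.64 to 10.49 and 8.38 to 11.75 in PAT females, against 9.05 to 9.50 and 8.27 to 10.47 in control females. The wide hepatocyte range came from Cyp2e1, at 5.58, 11.63 and 10.21 in PAT females 1 to 3. The fat cell gene Adipoq was at 4.14, 11.16 and 9.58 on the same arrays. Limma called 0 of the ileal, macrophage, T cell, B cell, goblet, enteroendocrine, dividing cell, muscle, fibroblast and fat cell markers in PAT against control in either sex. Ileal sums were 14.89 to 15.38 in PAT males and 14.75 to 15.12 in control males. Averaged over the sexes, 2 of 8 absorptive, 1 of 4 ileal and 2 of 4 endothelial markers were called higher. In that comparison 1 of 5 crypt base markers was called lower. The part of all these markers in the cholesterol genes was not tested.
The Gapdh difference was -0.16 ± 0.06 in PAT males and -0.24 ± 0.03 in control males (SD, n = 5 each), and -0.07 ± 0.04 in PAT females and -0.15 ± 0.06 in control females (SD, n = 3 each). With this difference as a covariate, or with the beta-actin difference, the 9 genes called in PAT males without a covariate all stayed called.

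**Figure D5:**
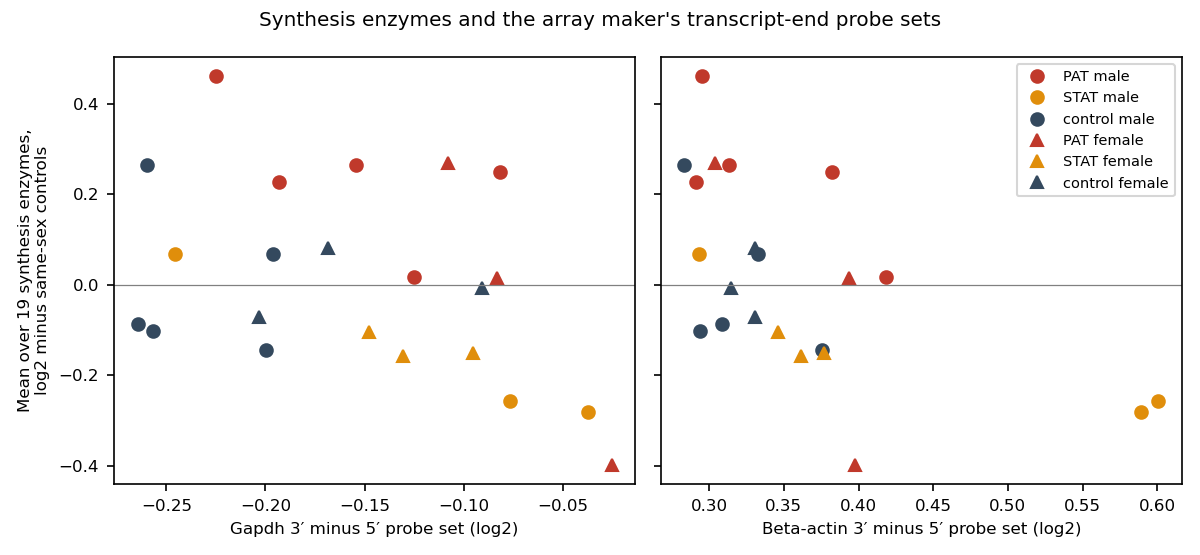
Mean of the 19 synthesis enzymes on each array, as log2 level minus the mean of same-sex controls (vertical), against the 3′ minus 5′ difference of the Gapdh (left) and beta-actin (right) control probe sets (log2, horizontal); circles are males, triangles females. PAT males lie between 0.02 and 0.46 and overlap the control males, which lie between -0.145 and 0.265. STAT males 2 and 3 lie at -0.28 and -0.26 with the largest beta-actin differences, and PAT female 1 at -0.40 with the highest Gapdh difference.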

How the data were processed

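Log2 expression values per probe set, for 22 Affymetrix arrays, were deposited by the authors; the submitters' processing notes name RMA and affy, without versions. RMA adjusts for background, brings arrays to a common distribution and merges the probes of a set. It gives no detection calls and understates fold changes of dim genes. RNA was extracted with TRIzol and RNeasy columns and labelled with biotin, per the labels' protocols. Of 45101 probe sets, 64 were array controls, 34945 had 1 gene symbol, 932 several and 9160 none; only those with 1 were named.

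Differential expression was computed with limma 3.58.1 in R 4.3.3: 1 mean per group over all 22 arrays, 16 residual and 4.88 prior degrees of freedom, two-sided p-values adjusted by Benjamini-Hochberg over 18193 genes per comparison, called under 0.05. Errors are SE for fold changes and SD for levels. The number of arrays limits precision. The code was tested on simulated data. Members and lists, and the alternatives, were chosen with earlier results of these data known. Every member is named; array values are given for those called against controls and for Srebf2, Scap, Npc1l1 and the LXR and efflux genes. Alternatives covered probe set choice, a filter at a mean of 6, normalization, arrays in the fit, weights, the variance model and RNA integrity. Motifs were searched on both strands of RefSeq promoters.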

Additional observations from a re-analysis of the deposited data

Results flagged for a closer look

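In 4 of 62 groups of 5 arrays (31 genes in PAT males and in control males), 1 array lay further from its nearest neighbour than Dixon's critical value of 0.71 (the gap as a share of the group's range) allows; chance gives about 1 in 20 such groups. Tm7sf2 was at 9.56 in PAT male 4, where the next lowest PAT male was at 10.04. Abca1 was at 7.80 in PAT male 5, with the next lowest at 8.27. Among control males, Abca1 was at 9.13 in control male 3, with the next highest at 8.22, and Lbr was at 11.03 in control male 4, with the next highest at 10.76. None of these 3 genes was called in PAT males.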

How the results depend on the processing

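No called gene changed sign under any alternative. The alternative that tested every probe set still read each gene from its brightest probe set, so no sign could change in it. A dimmer probe set of Lss had a value below 0 in PAT males (-0.15 ± 0.17) and was not called. In PAT males the count of called genes (9) stayed within 1.5 times under every alternative. It was 7 to 11 when 1 array was left out, where 833 to 2089 of all genes were called. In PAT females (1 called) it was 0 with the mean of probe sets, every probe set, median centring or the Gapdh covariate, 2 with the filter on dim genes, repeated quantile normalization or an intensity trend, 3 with the beta-actin covariate and 6 with array weights; fitting only the groups compared called 1, a gene other than Tm7sf2. For PAT over STAT averaged (5) it was 8 with the filter or quantile normalization, 3 with centring, 2 with the groups compared, 15 with weights, 10 with the Gapdh covariate and 1 with STAT males 2 and 3 left out. For PAT over STAT in males (12) it was 3 with the groups compared, 21 with weights, 1 with the beta-actin covariate and 0 with STAT males 2 and 3 left out, which keeps 1 STAT male; in females (0) it was 1 with weights or the beta-actin covariate. For STAT over control (0), weights gave 12 in males and 6 averaged. Leaving out 1 array gave 0 to 3 in PAT females (123 to 751 of all genes) and 5 to 12 for PAT averaged (1353 to 2494 of all genes). It gave 1 to 18 for PAT over STAT in males (254 to 2847 of all genes) and 3 to 11 averaged (633 to 1676). For STAT over control it gave 0 to 7 in males (0 to 1973 of all genes) and 0 to 5 averaged (0 to 1053). The other comparisons stayed at 0 in these runs. The causes were not tested. No paired analysis was possible because the labels give no replicate numbers shared between groups. Limits are the 3 to 5 arrays per group, 1 probe set standing for a gene, and no detection calls.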
